A study of Mus musculus with 18 samples.

Results

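The genes described here are 10 of the 23420 gene symbols counted by RNA-sequencing in mouse retina, chosen by name as genes of the gliosis response. They are the intermediate filament genes *Gfap*, *Vim* and *Nes*, the hyaluronan receptor gene *Cd44*, the S100 genes *S100a6*, *S100a10* and *S100a11*, and the annexin genes *Anxa1*, *Anxa2* and *Anxa3*. All 10 passed the filter on low counts, together with 15196 genes in all. The retinas came from 9 albino BALB/cJ mice of wild-type genotype, 1 retina sample per animal. Naïve mice (n = 3) were kept from the light and are labelled as untreated, vehicle mice (n = 3) were exposed to 15000 lux of white light for 1 h and injected with vehicle (DMSO), and TD139 mice (n = 3) had the same light and 15 mg/kg of the galectin-3 inhibitor TD139. Injections were intraperitoneal and daily, beginning the day before light, and retinas were taken 4 days after light. Light and vehicle treatment therefore cannot be told apart in the comparison with naïve mice, and TD139 was given only to light-exposed mice.

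Gliosis is the response of Müller glia and astrocytes to retinal injury, and its usual mark is the assembly of more intermediate filament in their processes. Glial fibrillary acidic protein (GFAP) is abundant in retinal astrocytes and low in resting Müller glia, vimentin is the constitutive filament of Müller glia, and nestin is the filament of neural progenitors. CD44 is a membrane receptor for hyaluronan and osteopontin that is linked to the actin cortex by ezrin, radixin and moesin. S100 proteins are small calcium-binding proteins, and annexins bind membrane phospholipids in the presence of calcium. S100A10 pairs with annexin A2, and S100A11 with annexin A1, at the inner face of membranes. Microglia, macrophages, endothelial cells and the epithelia of the eye also use several of these genes, so their level in a whole retina is not that of 1 cell type.

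In the annotation of GRCm38 (mm10), the S100 members lie on chromosome 3, with *S100a6* at chr3:90612882-90624181, *S100a11* at chr3:93520488-93526287 and *S100a10* at chr3:93555080-93564643, all on the plus strand. *Nes* is on the same chromosome (chr3:87971078-87980451, plus), and *Vim* (chr2:13573927-13582826, plus) and *Cd44* (chr2:102811141-102901665, minus) share chromosome 2. *Gfap* is at chr11:102887336-102900912 (minus), *Anxa1* at chr19:20373428-20390944 (minus), *Anxa2* at chr9:69453620-69491795 (plus) and *Anxa3* at chr5:96793339-96845966 (plus). The S100 transcripts are short, with 731 bases for *S100a6*, 685 for *S100a10* and 511 for *S100a11*, and transcript length is taken up again with the TD139 comparisons. Start-site sequences (250 bases before and 50 after the start, RefSeq, GRCm38.p6) were found for 8 of the 10 genes, without *S100a10* and *Anxa3*. They were searched on both strands for 2 palindromic motifs of factors known from glial and injury responses, TTCNNNGAA of STAT factors and TGANTCA of AP-1, which cannot share a match. The 3 sequences that hold a match are shown because these members belong to 3 of the 4 families described, with the matched bases in capitals. *Gfap* (chr11:102897151-102897450, minus strand) has 1 STAT match starting at -2 from the start site, *S100a11* (chr3:93520246-93520545, plus) has 2 AP-1 matches at -136 and -38, and *Anxa2* (chr9:69453433-69453732, plus) has 1 AP-1 match at -95.
Gfap: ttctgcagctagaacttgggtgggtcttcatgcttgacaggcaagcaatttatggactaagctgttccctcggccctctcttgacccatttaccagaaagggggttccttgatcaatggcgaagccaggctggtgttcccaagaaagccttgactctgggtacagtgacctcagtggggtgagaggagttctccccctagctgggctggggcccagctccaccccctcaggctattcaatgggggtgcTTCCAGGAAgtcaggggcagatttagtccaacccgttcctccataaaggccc
S100a11: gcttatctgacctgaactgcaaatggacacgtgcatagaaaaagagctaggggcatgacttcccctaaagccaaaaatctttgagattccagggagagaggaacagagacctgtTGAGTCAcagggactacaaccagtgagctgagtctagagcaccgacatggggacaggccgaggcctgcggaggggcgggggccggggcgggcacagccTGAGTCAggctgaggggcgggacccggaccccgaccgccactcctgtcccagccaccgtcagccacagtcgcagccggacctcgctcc
Anxa2: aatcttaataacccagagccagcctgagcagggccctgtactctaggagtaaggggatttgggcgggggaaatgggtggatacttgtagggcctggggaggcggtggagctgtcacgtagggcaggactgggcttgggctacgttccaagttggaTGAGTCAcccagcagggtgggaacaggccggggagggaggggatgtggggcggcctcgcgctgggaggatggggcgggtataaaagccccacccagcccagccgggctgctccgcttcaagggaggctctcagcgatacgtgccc
These letters occur in 8.30% (STAT) and 7.81% (AP-1) of 32851 mouse windows of the same 300 bases, against 1 and 2 of the 8 windows of these genes. The match is a description of the letters and not of binding.

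The libraries held 26171887 to 30201517 reads on genes per mouse, and levels are given as CPM, the reads of a gene relative to the library's total after TMM scaling. The 10 rod markers summed to 75900 to 87435 CPM in naïve, 44138 to 62038 CPM in vehicle and 62919 to 78174 CPM in TD139 mice, the highest sums of any list, as retina would give. Marker lists for other cell types, written with earlier results of these data known, did not all move alike. Müller glia, microglia and astrocyte sums were higher in every vehicle mouse than in all other mice. Vessel, pigment epithelium and monocyte sums of vehicle mice overlapped those of naïve or TD139 mice. The 10 Müller glia markers summed to 5585 to 5919 CPM in naïve, 8716 to 9056 CPM in vehicle and 5631 to 7299 CPM in TD139 mice, and the 14 microglia and macrophage markers to 69.8 to 74.3, 302 to 573 and 50.3 to 187 CPM. Within the Müller glia sum, *Clu* had means of 980, 2637 and 805 CPM in naïve, vehicle and TD139 mice. *Glul* had means of 2586, 2900 and 2894 CPM, so the sum does not stand for each of its genes. Retinal astrocyte markers (5 genes) summed to 31.1 to 46.4, 82.2 to 99.2 and 23.0 to 44.1 CPM, most of it from *Aldh1l1* (means of 27.4, 68.1 and 20.6 CPM). The vessel markers (10 genes of endothelial cells and pericytes) summed to 202 to 285, 367 to 507 and 264 to 499 CPM. Monocyte and neutrophil markers stayed at 0.395 to 3.60 CPM for 8 genes, and *Camp* was at 0 in all but 2 vehicle libraries. The library of vehicle mouse 2 stood apart: its 11 lens, cornea and fibroblast markers summed to 8367 CPM, against 49.5 to 379 CPM in the other 8 mice, with *Cryaa* of the lens at 5506 CPM and *Krt12* of the cornea at 94.1 CPM. Among TD139 mice, mouse 1 had the highest sum of both Müller glia and microglia markers.

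**Figure D1:**
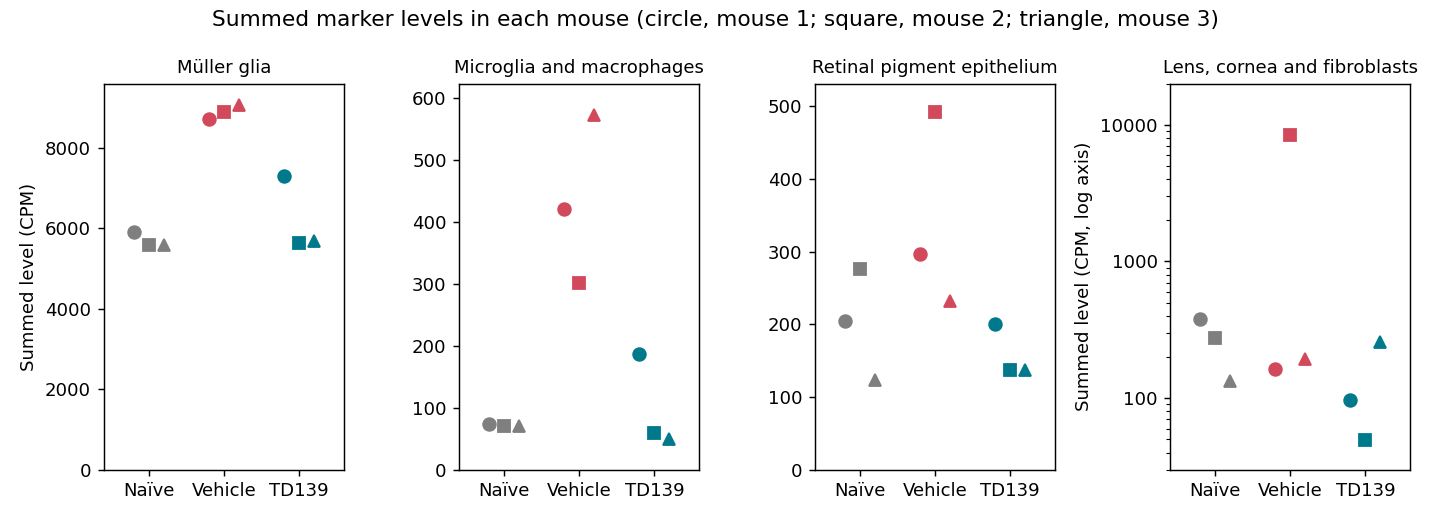
Summed level (CPM) of 4 marker lists in each mouse, by group; colours give the group and shapes the mouse, and only the axis of the lens, cornea and fibroblast list is logarithmic. Müller glia sums of the 3 vehicle mice (8716 to 9056 CPM) lie above those of the other 6, and vehicle mouse 2 alone reaches 8367 CPM in the last panel.

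Light exposure with vehicle was first compared with naïve mice, which asks how these genes stand 4 days after light damage. All 10 genes were higher in every vehicle mouse than in every naïve mouse, which was the case for 16.7% of the tested genes. Fitted log2 fold changes ranged from 0.82 for *Nes* to 2.71 for *S100a6*, and their median was 1.70 against -0.00 over all tested genes. Of these, *Vim*, *Cd44*, *S100a6*, *S100a10* and *Anxa3* (5 of 10) rose at an adjusted p under 0.05 (edgeR quasi-likelihood test, Benjamini-Hochberg over 15196 genes), where 4.91% of tested genes rose and 2.89% fell. *S100a6* alone also passed a log2 fold change of 2, as 1.24% of tested genes did. The remaining 5, *Gfap*, *Nes*, *S100a11*, *Anxa1* and *Anxa2*, had adjusted p values of 0.0585 to 0.130, and each of the 10 had an unadjusted p under 0.05. The number of genes that rose was sensitive to single mice: 2, 0 and 1 without naïve mouse 1, 2 and 3, 3 and 2 without vehicle mouse 1 and 3, 9 without TD139 mouse 1, and 5 or 6 without each other mouse. The share of all tested genes that rose moved as well, to 0.402%, 0.00647% and 0.907% without naïve mouse 1, 2 and 3, to 1.42% and 0.423% without vehicle mouse 1 and 3, to 7.56% without TD139 mouse 1 and to 4.03% to 4.30% without each other mouse. With DESeq2 the count was 9, where 8.97% of tested genes rose. In whole retina, more cells of a type and more RNA per cell cannot be told apart.

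**Figure D2:**
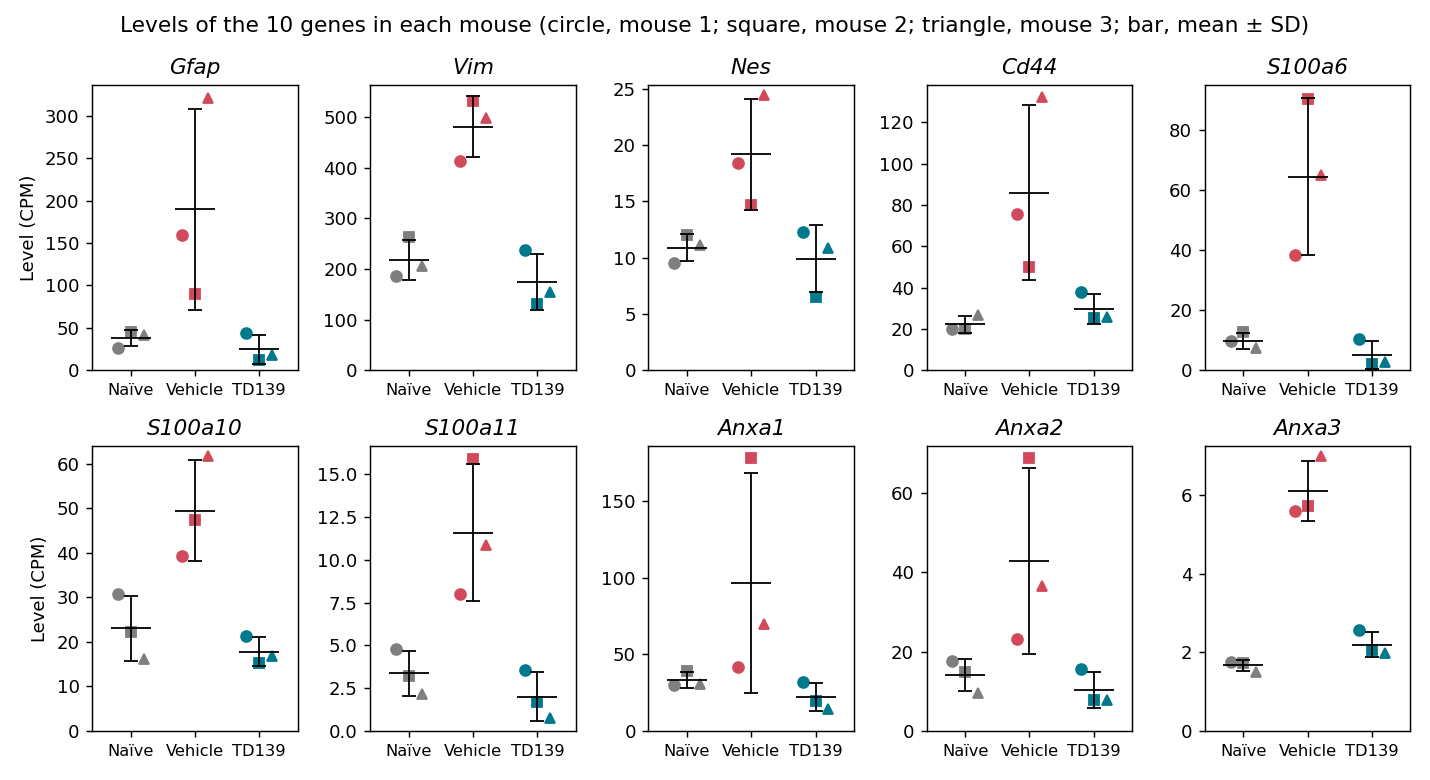
Level (CPM, linear axis from 0) of each of the 10 genes in the 9 mice, with the bar at the mean and its whisker at ± SD (n = 3 per group). The vehicle mice lie above the naïve and the TD139 mice in all 10 panels, and the vehicle mice range from 89.6 to 321 CPM for *Gfap* and from 42.0 to 178 CPM for *Anxa1*.

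TD139 was next compared with vehicle among light-exposed mice, the comparison that addresses TD139 treatment. The paper could not exclude that TD139 also acted on galectin-1. From galectin-3-deficient mice given TD139 it concluded that the therapeutic effects came mainly through galectin-3. All 10 genes fell (edgeR, adjusted p 0.0050 to 0.0286), where 16.2% of tested genes fell and 17.2% rose, and every TD139 mouse was below every vehicle mouse for each of the 10, as for 25.4% of all tested genes. The median log2 fold change was -1.79, against -0.02 over all genes. *Gfap*, *S100a6*, *S100a11*, *Anxa1* and *Anxa2* also passed the log2 cut-off of -2 used in the study, which 1.53% of tested genes passed. The number past this cut-off was 3 without vehicle mouse 2 (*Anxa1* at -1.34 and *Anxa2* at -1.53), 4 without vehicle mouse 3, 1 without TD139 mouse 2 and 2 without TD139 mouse 3, where 1.57%, 0.885%, 0.518% and 0.596% of tested genes passed it. With a length and GC offset fitted per mouse 3 passed, without *Anxa1* (-1.93) and *Anxa2* (-1.59), where 1.07% of tested genes passed. *Vim*, *S100a6*, *S100a10* and *Anxa3* passed the test whichever mouse was left out. The other 6 each lost it without at least 1 mouse, and the count was 4 without TD139 mouse 2, 6 without TD139 mouse 3 and 8 without vehicle mouse 3. The share of all tested genes that fell was then 4.91%, 5.62% and 8.37%. Leaving out vehicle mouse 2, the library with lens RNA, kept all 10 past the threshold, with a median of -1.52, where 1844 of 15325 tested genes fell. Without TD139 mouse 1, the highest of its group, the log2 fold changes were -4.72 in place of -3.67 for *S100a6*, -3.67 in place of -2.96 for *Gfap* and -3.24 in place of -2.53 for *S100a11*. This comparison shares its vehicle mice with the one before, so each vehicle mouse enters both.

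Against naïve mice, none of the 10 genes passed the test in TD139 mice (edgeR, adjusted p 0.260 to 0.747), none had an unadjusted p under 0.05, and DESeq2 also called none. In this comparison 2.72% of all tested genes were higher and 2.38% lower. The groups overlapped for 9 genes. *Anxa3* alone was higher in every TD139 mouse than in every naïve mouse (15.3% of tested genes were), with a log2 fold change of 0.40 (95% confidence interval -0.09 to 0.89, adjusted p = 0.260). The intervals leave room for a sizeable difference in several genes, for instance -2.14 to 0.89 for *Gfap* and -2.45 to 0.54 for *S100a6*, and were narrower for *Vim* (-0.80 to 0.15) and *Nes* (-0.67 to 0.40). Without TD139 mouse 1, which had the highest level of all 10 genes in its group, 2 of them fell below naïve: *Vim* (log2 fold change -0.60, adjusted p = 0.0425) and *S100a6* (-2.01, adjusted p = 0.0334). In the fit without this mouse 3.97% of all tested genes were lower and 6.74% higher.

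**Figure D3:**
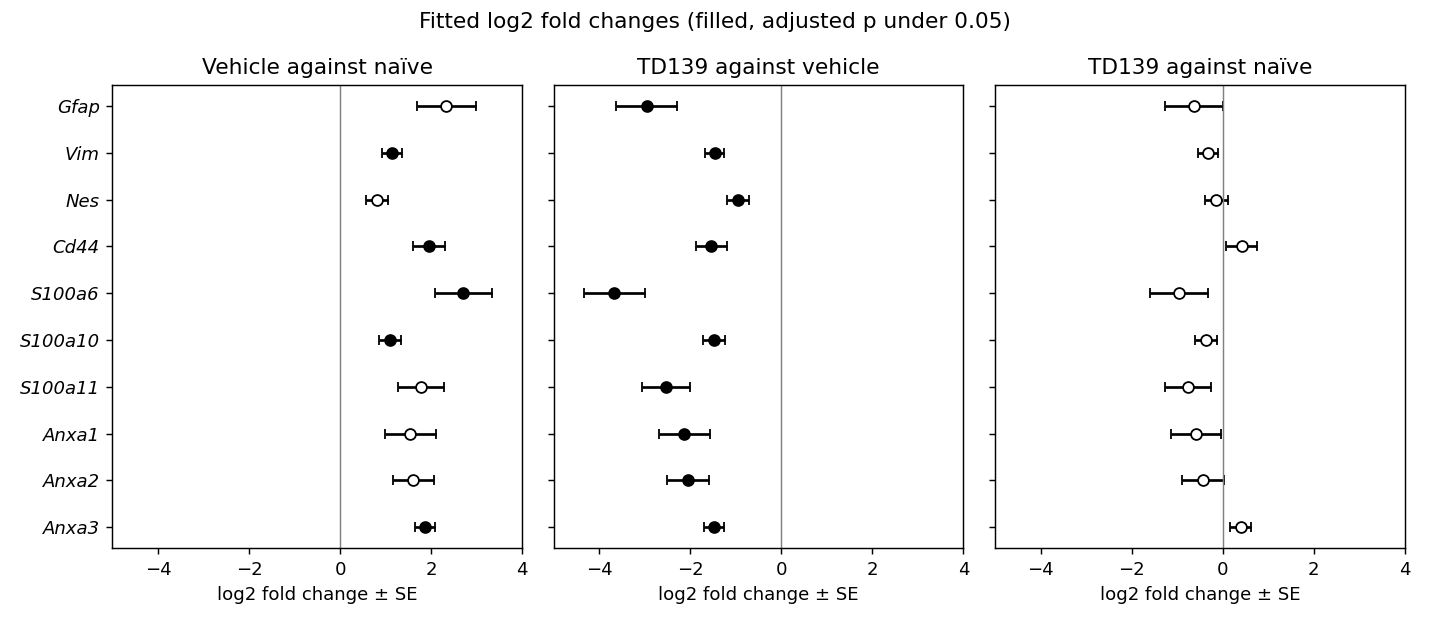
Fitted log2 fold change (point) ± SE (bar) of the 10 genes in the 3 comparisons; filled points passed an adjusted p under 0.05 (edgeR, 3 mice per group). In vehicle against naïve 5 of 10 points are filled, in TD139 against vehicle all 10 are filled and negative, and in TD139 against naïve none is filled.

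*Gfap* was at 26.6, 44.7 and 41.9 CPM in naïve mice 1 to 3, at 160.0, 89.6 and 321 CPM in vehicle mice and at 43.5, 11.8 and 18.1 CPM in TD139 mice. The lowest vehicle mouse was above all naïve and TD139 mice, and within the vehicle group the highest and lowest mouse lay far apart. The fold of vehicle over naïve was 5.04 with an interval of 1.72 to 14.8 (log2 fold change 2.33, SE 0.65, adjusted p = 0.0766), which did not pass the test. With TD139 *Gfap* fell by 2.96 on the log2 scale (SE 0.67, adjusted p = 0.0182). *Vim*, the most abundant of the 10 also per kilobase, was at 187, 262 and 205 CPM in naïve, 414, 532 and 497 CPM in vehicle and 237, 130.3 and 155 CPM in TD139 mice. Its mice varied less around their group means, and *Vim* rose 2.21-fold with light and vehicle (interval 1.58 to 3.08, adjusted p = 0.0216) and fell by 1.47 on the log2 scale with TD139 (SE 0.22, adjusted p = 0.0054). *Nes* was the filament gene with the smallest change, at 9.57, 11.98 and 11.1 CPM in naïve, 18.4, 14.7 and 24.5 CPM in vehicle and 12.3, 6.54 and 10.9 CPM in TD139 mice. The vehicle and naïve mice did not overlap, but the log2 fold change of 0.82 (SE 0.24) had an adjusted p of 0.0625. *Nes* fell by 0.95 with TD139 (SE 0.24, adjusted p = 0.0148).

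*Cd44* was at 19.7, 20.01 and 26.8 CPM in naïve, 75.5, 49.8 and 132 CPM in vehicle and 37.9, 25.2 and 25.7 CPM in TD139 mice. It rose 3.87-fold with light and vehicle (interval 2.23 to 6.73, adjusted p = 0.0235), and without vehicle mouse 2 the log2 fold change was 2.23 in place of 1.95. With TD139 it fell by 1.54 on the log2 scale (SE 0.34, adjusted p = 0.0131). TD139 mice 2 and 3 were inside the naïve range and mouse 1 above it, and the log2 fold change of TD139 against naïve was 0.42 (interval -0.37 to 1.20). *Cd44*, *Gfap* and *Nes* shared an order within the vehicle group, with mouse 3 highest and mouse 2, the one with lens RNA, lowest. The microglia markers of the vehicle mice had the same order, with 422, 302 and 573 CPM in mice 1 to 3, and the part of microglia in the *Cd44* level was not tested.

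*S100a6*, which encodes calcyclin, had the largest fitted change of the 10 in both comparisons with vehicle. It was at 9.57, 12.6 and 7.37 CPM in naïve, 38.2, 90.2 and 65.0 CPM in vehicle and 10.3, 2.16 and 2.73 CPM in TD139 mice. *S100a6* rose 6.54-fold (interval 2.33 to 18.4, adjusted p = 0.0477) and fell by 3.67 on the log2 scale with TD139 (SE 0.66, adjusted p = 0.0095). The rise was lost without any 1 of 7 mice, which were each naïve mouse, each vehicle mouse and TD139 mouse 3. Its adjusted p was 0.0663 without vehicle mouse 2 (log2 fold change 2.39) and highest, at 0.139, without naïve mouse 3. *S100a10*, the partner of annexin A2, was at 30.7, 22.3 and 16.2 CPM in naïve, 39.4, 47.3 and 61.7 CPM in vehicle and 21.4, 15.2 and 16.8 CPM in TD139 mice. Its rise was 2.14-fold (interval 1.48 to 3.11, adjusted p = 0.0287), its log2 fold change with TD139 was -1.47 (SE 0.24, adjusted p = 0.0058), and both passed without vehicle mouse 2. The fall passed whichever mouse was left out. The rise was lost without naïve mouse 2 (adjusted p = 0.102), naïve mouse 3 or vehicle mouse 3. *S100a11* was the S100 member with the lowest level, also per kilobase, at 4.76, 3.20 and 2.16 CPM in naïve, 8.01, 15.9 and 10.9 CPM in vehicle and 3.56, 1.67 and 0.751 CPM in TD139 mice. The last value rests on 19 reads. The fold of vehicle over naïve was 3.43 (interval 1.58 to 7.44, adjusted p = 0.0585), and *S100a11* fell by 2.53 on the log2 scale with TD139 (SE 0.52, adjusted p = 0.0085).

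*Anxa1*, known as a mediator of the resolution of inflammation, was at 30.1, 39.0 and 30.4 CPM in naïve, 42.0, 178 and 69.6 CPM in vehicle and 32.2, 19.7 and 14.3 CPM in TD139 mice. Vehicle mouse 1 was just above the highest naïve mouse, and vehicle mouse 2 gave the highest value. The fold over naïve was 2.91 (interval 1.17 to 7.25, adjusted p = 0.130), and without vehicle mouse 2 the log2 fold change was 0.75 in place of 1.54. *Anxa1* fell by 2.13 with TD139 (SE 0.57, adjusted p = 0.0286), and by 1.34 without vehicle mouse 2 (adjusted p = 0.0242). *Anxa2*, which carries S100A10 to the membrane and docks plasminogen and its activator, was at 17.6, 14.8 and 9.64 CPM in naïve, 23.2, 68.8 and 36.6 CPM in vehicle and 15.7, 7.72 and 7.71 CPM in TD139 mice. It had the same order among vehicle mice as *Anxa1*, a fold over naïve of 3.06 (interval 1.48 to 6.33, adjusted p = 0.0677), and it fell by 2.05 with TD139 (SE 0.46, adjusted p = 0.0142). *Anxa3* was the least abundant annexin of the 3, also per kilobase, and the one with the tightest groups, at 1.77, 1.73 and 1.503 CPM in naïve, 5.61, 5.72 and 6.99 CPM in vehicle and 2.56, 2.05 and 1.98 CPM in TD139 mice. It rose 3.66-fold (interval 2.61 to 5.13, adjusted p = 0.0127), the smallest adjusted p of the 10, and fell by 1.47 with TD139 (SE 0.22, adjusted p = 0.0050).

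Vehicle mouse 2 was the highest of its group for *Vim*, *S100a6*, *S100a11*, *Anxa1* and *Anxa2* and the lowest for *Gfap*, *Nes* and *Cd44*, and the part of lens, cornea and fibroblast RNA in these levels was not tested. Its retinal pigment epithelium markers were also the highest, with 492 CPM against 124 to 296 CPM in the other mice. Without it, 5 genes rose against naïve (*Vim*, *Nes*, *Cd44*, *S100a10* and *Anxa3*), at a median of 1.31 on the log2 scale, so that *S100a6* lost and *Nes* gained the call. A trend with transcript length ran through the comparisons with TD139. Across 15068 genes with a known length, Spearman's rank correlation of fold change with length was 0.49 for TD139 against vehicle, 0.60 for TD139 against naïve and -0.10 for vehicle against naïve, and genes are not independent replicates. Of the 544 tested genes of at most 800 bases, 41.4% fell in TD139 against vehicle, at a median of -0.50 on the log2 scale, and the S100 members are among these short genes. With an offset per mouse for transcript length and GC content, all 10 genes still fell, where 7.61% of all tested genes fell, with -3.12 for *S100a6*, -0.98 for *S100a10* and -2.11 for *S100a11*, while *Cd44* had -1.87 (-1.54 without the offset) and *Nes* -1.06 (-0.95). The median of all genes moved by up to 0.10 under this offset or with library size alone as the scaling. With the same offset 8 of the 10 rose in vehicle against naïve, all but *Gfap* and *Anxa1*, where 6.12% of all tested genes rose.

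**Figure D4:**
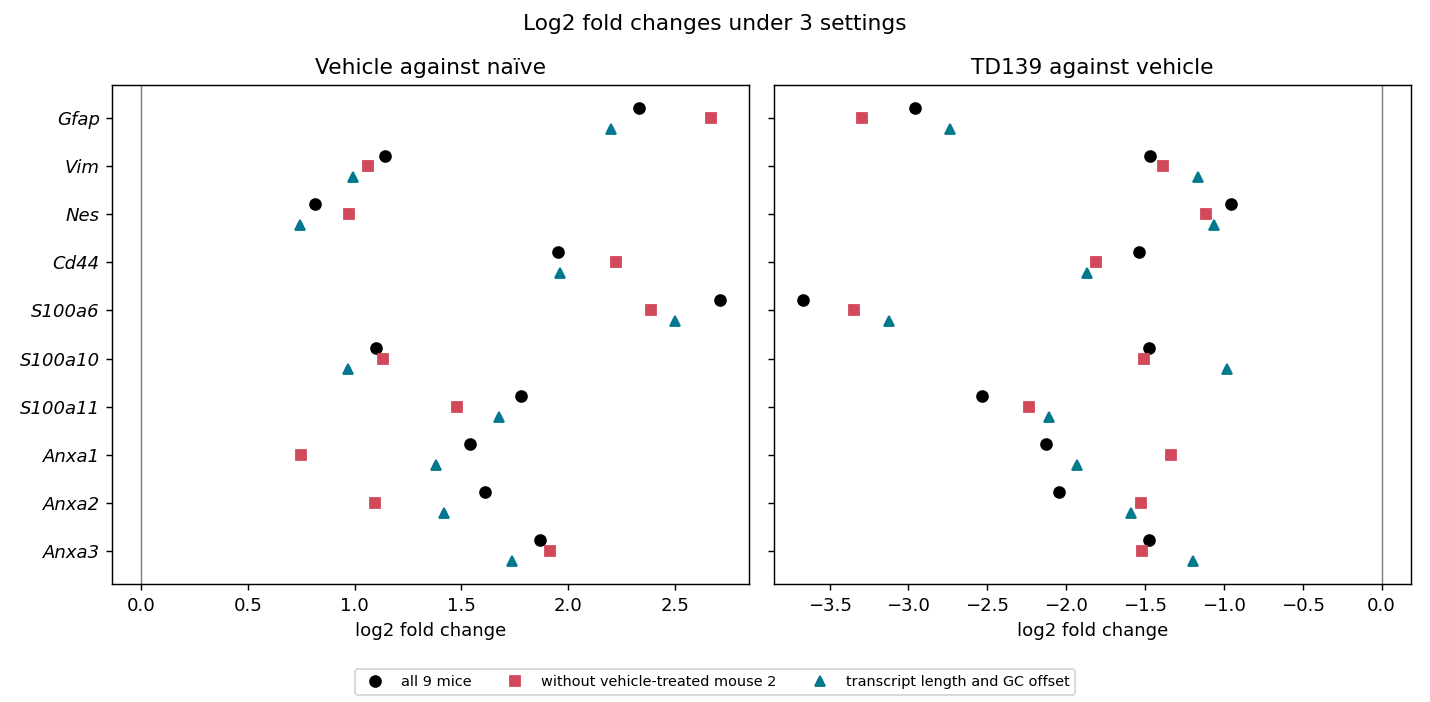
Log2 fold changes of the 10 genes with all 9 mice, without vehicle mouse 2 and with an offset for transcript length and GC content. The largest shift without vehicle mouse 2 is that of *Anxa1* (1.54 to 0.75 in vehicle against naïve), and the offset brings the S100 genes closer to 0 in TD139 against vehicle (*S100a10* from -1.47 to -0.98).

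Other members of the same families were examined for comparison. For this and the following lists, 4.91% of all tested genes rose and 2.89% fell in vehicle against naïve. In TD139 against vehicle 17.2% rose and 16.2% fell. Of 13 other S100 genes in the files 6 were tested, and 4 of them, *S100a1*, *S100a4*, *S100a13* and *S100a16*, rose with light and vehicle and fell with TD139. *S100a4*, known from motile and mesenchymal cells, had log2 fold changes of 1.91 (SE 0.50, adjusted p = 0.0463) and -3.13 (SE 0.54, adjusted p = 0.0060), and the more abundant *S100a16* of 1.20 (SE 0.22, adjusted p = 0.0207) and -1.76 (SE 0.22, adjusted p = 0.0050). *S100a1* and *S100a13* had log2 fold changes of 0.85 and 1.01 in the first and -1.42 and -1.83 in the second comparison. The astrocyte gene *S100b* had log2 fold changes of -0.09 (adjusted p = 0.790) and -0.30 (adjusted p = 0.236). *S100a8* and *S100a9*, the S100 genes of neutrophils, were too low to be tested, with at most 11 reads in any mouse. The median over the 6 tested genes was 0.99, -1.72 and -0.64 in the 3 comparisons, and without vehicle mouse 2 the count of rises was 1 and the median 0.94 in vehicle against naïve. Of 9 other annexin genes 6 were tested, with medians of 0.72, -0.69 and -0.02. *Anxa5* rose by 0.81 (SE 0.19, adjusted p = 0.0306), and *Anxa4*, *Anxa5* and *Anxa6* fell with TD139 (log2 fold changes -1.18, -0.93 and -0.58, adjusted p 0.0072 to 0.0268), while *Anxa7* had 0.03 and -0.17 and passed neither test. With the length and GC offset 3 rose in vehicle against naïve and 1 fell with TD139, where 6.12% and 7.61% of all tested genes did.

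**Figure D5:**
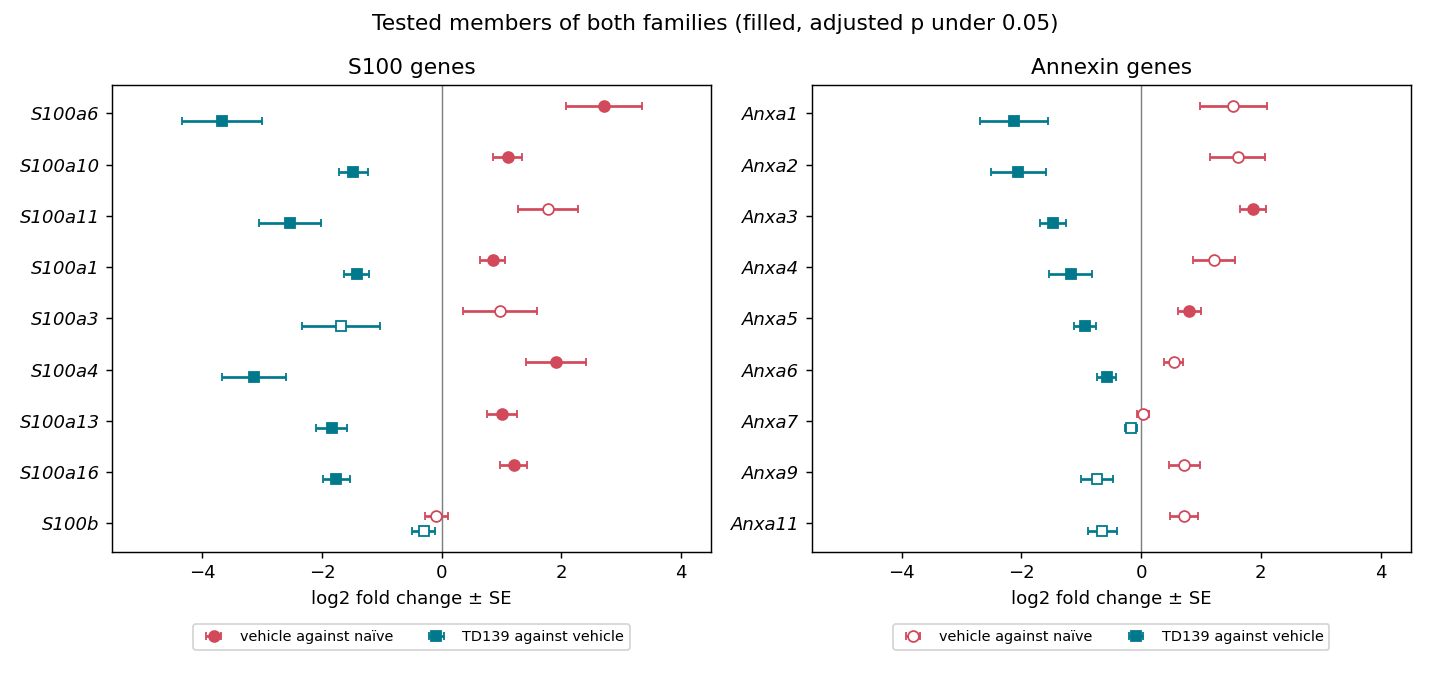
Log2 fold change ± SE of the tested S100 genes (left) and annexin genes (right), the members described here first, for vehicle against naïve (circles) and TD139 against vehicle (squares); filled symbols passed an adjusted p under 0.05. *S100b* and *Anxa7* lie next to 0 in both comparisons, while *S100a4* reaches 1.91 and -3.13.

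The wider intermediate filament class was taken as a list of 19 genes. Of 18 tested filament, lamin, keratin and plakin genes none rose with light and vehicle and 1 fell, the lamin gene *Lmnb1* (-0.61, SE 0.13, adjusted p = 0.0246, or 0.0814 without naïve mouse 2), and the median log2 fold change was 0.07. *Prph*, the peripherin filament gene, had 1.10 (adjusted p = 0.0518) and was called with the length and GC offset (0.93, adjusted p = 0.0357), and 2 of the 18 rose with DESeq2 or with library size alone. In TD139 against vehicle 3 rose (*Lmnb1*, *Dst* and *Macf1*) and 3 fell (*Prph*, *Lmna* and *Krt18*). These counts are near the shares of all tested genes, of which 17.2% rose and 16.2% fell. The plakin genes *Dst* and *Macf1*, which have long transcripts and encode linkers between filaments, also rose in TD139 against naïve (0.57 and 0.66, adjusted p = 0.0420 for both), and neither was called with the length and GC offset. With the offset *Dst* had -0.12 (0.53 without) and *Krt18* 0.07 (-0.46 without) in TD139 against vehicle, a change of sign with adjusted p of 0.421 and 0.642. *Macf1* had 0.25 with the offset (0.97 without) in the same comparison and was not called (adjusted p = 0.220). *Nefl*, the abundant neurofilament gene of ganglion cells, had -0.07 and 0.25 (adjusted p = 0.735 and 0.112).

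Among 12 tested genes for ligands and partners of CD44, 4 rose with light and vehicle. *Spp1*, the gene of osteopontin, rose by 3.802 on the log2 scale (SE 0.70, adjusted p = 0.0294), and the linker genes *Ezr* and *Msn* by 1.21 and 1.10 (adjusted p = 0.0273 and 0.0250). The membrane protease gene *Mmp14*, whose product cleaves CD44, rose by 0.98 (adjusted p = 0.0278). These 4 fell with TD139 (log2 fold changes -2.87, -1.34, -0.92 and -1.02), as did *Hyal2* of hyaluronan turnover (-0.59, adjusted p = 0.0179), while *Lyve1*, a hyaluronan receptor of lymphatic endothelium and macrophages, rose by 0.43 (adjusted p = 0.0456). *Hyal2* and *Lyve1* lost their calls with the length and GC offset (-0.18 and 0.42, adjusted p = 0.343 and 0.0528). *Rdx* and *Nf2*, the genes of radixin and merlin, had log2 fold changes of -0.07 and -0.03 in vehicle against naïve and of 0.36 and 0.18 in TD139 against vehicle, none past the threshold. None of the 12 was called between TD139 and naïve mice.

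Partners of annexins and S100 proteins gave 3 rises among 9 tested genes. The urokinase gene *Plau*, an activator of plasminogen, rose by 3.88 on the log2 scale (SE 0.52, adjusted p = 0.0127), and the membrane repair and scaffold genes *Myof* and *Ahnak* by 1.79 and 1.11 (adjusted p = 0.0386 and 0.0398). *Plau*, *Myof*, *Dysf* and *Plat* fell with TD139 (log2 fold changes -2.78, -1.36, -0.85 and -0.68, adjusted p 0.0060 to 0.0336), and *Ahnak* had -0.68 (adjusted p = 0.0769), or -0.04 (adjusted p = 0.926) with the length and GC offset. With the offset the fall of *Plat* (-0.54, adjusted p = 0.0684) and the rise of *Ahnak* (0.85, adjusted p = 0.0560) were no longer called. *Cacybp*, the gene of a calcyclin-binding protein, had 0.00 and 0.06. Of 19 tested reactive glia genes outside the 10 described, 6 rose with light and vehicle and 13 fell with TD139. Of all tested genes 4.91% and 16.2% did so, and the medians of the list were 1.62 and -1.92. Examples with the highest counts were *Cp* (2.29 and -1.86), *Lcn2* (5.80 and -4.88) and *Serpina3n* (4.04 and -3.80), which encode ceruloplasmin, lipocalin 2 and a protease inhibitor. For TD139 against naïve the median of this list was -0.07, and none of the 19 was called. With the length and GC offset the counts were 9 and 8, where 6.12% of all tested genes rose and 7.61% fell. Of the 10 Müller glia markers 5 rose with light and vehicle, *Slc1a3*, *Aqp4*, *Dkk3*, *Prdx6* and *Clu* (log2 fold changes 0.79, 0.78, 0.75, 1.14 and 1.43, adjusted p 0.0127 to 0.0386). *Dkk3*, *Car14*, *Prdx6* and *Clu* fell with TD139 (-0.51, -0.92, -1.11 and -1.71, adjusted p 0.0050 to 0.0336), and *Aqp4*, the water channel gene, was higher in TD139 than in naïve mice (0.70, adjusted p = 0.0420), while *Glul*, the glutamine synthetase gene of these cells, had 0.17 and -0.00 (adjusted p = 0.325 and 0.987). The falls of *Prdx6* and *Clu* passed whichever mouse was left out, while the 5 rises and the falls of *Dkk3* and *Car14* each lost the call without at least 1 mouse. With the length and GC offset *Car14* and the difference of *Aqp4* between TD139 and naïve mice were not called, while *Slc1a3* and *Aqp4* fell in TD139 against vehicle (-0.62 and -0.46, adjusted p = 0.0481 and 0.0354), which gave 5 falls. The microglia list gave 8 rises and 11 falls among 14 genes, and the rod list 7 falls and 5 rises among 10. With single mice left out these were 0 to 14 and 4 to 13 for microglia and 0 to 8 and 2 to 8 for rods, and with the length and GC offset 13 and 8 for microglia and 8 and 7 for rods. Under this offset 13.3% of all tested genes fell in vehicle against naïve and 13.9% rose in TD139 against vehicle. With single mice left out, the rises of the related gene lists in vehicle against naïve went as low as 0 in each, and their falls with TD139 were 4 to 5 for the other S100 genes, 1 to 5 for the other annexins, 3 to 7 for CD44 partners, 1 to 5 for annexin and S100 partners and 4 to 13 for reactive glia genes. The astrocyte list had 1 rise (*Aldh1l1*, 1.32, adjusted p = 0.0459) and 2 falls (*Aldh1l1*, -1.73, and *Pdgfra*, -1.03, adjusted p = 0.0082 and 0.0459) among 4 tested genes, and the rise was lost without vehicle mouse 3 (adjusted p = 0.135). *Pax2* and *Slc7a10* of this list had 0.25 and 0.57 in vehicle against naïve (adjusted p = 0.687 and 0.426), and *Gjb6* was too low to be tested. No tested endothelial, pigment epithelium or lens, cornea and fibroblast marker rose with light and vehicle (0 of 10, 0 of 7 and 0 of 10), although 2 vessel markers rose with DESeq2 or with library size alone and up to 3 with a mouse left out. Over the settings that kept every mouse, up to 1 pigment epithelium marker rose. In TD139 against vehicle *Rgs5* of pericytes rose (0.91), and *Cldn5* and *Cspg4* of the vessels, *Rpe65* and *Ttr* of the pigment epithelium and *Cryab* of the lens fell (-0.71, -1.003, -0.83, -1.42 and -3.77, adjusted p 0.0191 to 0.0492). Each of these 6 genes lost its call without at least 1 mouse, and with the length and GC offset *Cspg4* alone kept it. In this comparison 17.2% of all tested genes rose and 16.2% fell. *Cryab* ranged from 140.5 to 2009 CPM in the vehicle mice.

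Levels per kilobase of transcript allowed the 10 genes to be ordered within each group. In naïve retina *Vim* stood first with 99.40 ± 18.02 CPM per kb (SD, n = 3), then *S100a10* with 33.7 ± 10.7, *Anxa1* with 19.8 ± 3.02 and *Gfap* with 14.3 ± 3.68. These first 4 did not overlap each other. From *Gfap* down through *S100a6*, *Anxa2*, *S100a11* and *Cd44* neighbouring genes overlapped, and *Nes* with 1.78 ± 0.20 and *Anxa3* with 1.05 ± 0.09 CPM per kb were separate at the low end. In vehicle mice *Vim* was still alone at the top (219 ± 27.8 CPM per kb), followed by *S100a6* with 88.2 ± 35.6, *S100a10* with 72.2 ± 16.6 and *Gfap* with 71.8 ± 44.8, which overlapped. *Anxa3* (3.83 ± 0.48) and *Nes* (3.13 ± 0.81) overlapped at the bottom. In TD139 mice *Vim* (79.4 ± 25.5) and *S100a10* (26.0 ± 4.73) again stood apart at the top, and *S100a6* was 6th with 6.94 ± 6.25 CPM per kb.

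The genes whose log2 CPM followed *Gfap* most closely over the 9 mice, among the 13092 genes averaging 50 or more counts per mouse, were *Mvp*, *Aldh1l1*, *Olfm2*, *Relb* and *Plxnd1*, with Pearson's r of 0.986, 0.985, 0.984, 0.979 and 0.979. *Aldh1l1* is from the astrocyte list, whose other tested genes *Pax2*, *Pdgfra* and *Slc7a10* did not pass the test in vehicle against naïve. Whether *Gfap* followed astrocytes was not tested. *Nes* was the closest of the other members to *Gfap* (r = 0.97, rank 34). Among the 10 genes, *Vim* and *S100a6* were most alike (r = 0.99), *Anxa1* and *Anxa2* had 0.96, and *Cd44* and *Anxa1* were least alike (0.55). The mice form 3 groups and share these groups across all genes, so the coefficients describe the groups as well as the mice.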

How the data were processed

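RNA of single retinas was sequenced as stranded mRNA libraries (Illumina NextSeq, single reads), in 2 runs per mouse. The authors deposited counts per gene and run from BaseSpace RNA Express (genome build mm10 per the submitters' processing notes). The paper speaks of normalized DESeq2 counts, but the files hold whole numbers with a different total in each run and were analysed as raw counts; the aligner version, annotation and strand setting of the counting are not given in the sources used here. Because strand use in counting is unknown, overlapping genes could share reads; the overlapping genes found in the files, *1500015L24Rik* (*Anxa1*) and *Mir3109* (*Anxa2*), had at most 3 counts. Both runs of a mouse were summed: they differed by a chi-square per degree of freedom of 1.63 to 1.80, against 16.8 to 73.1 between mice of a group. Rows without a gene were left out (no feature, 16.5% to 22.8%, highest in TD139 mice; ambiguous, 0.303% to 0.471%). A transcript length was found for 23054 of 23420 symbols.

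Groups were taken from the labels. edgeR 4.0.16 (R 4.3.3; filterByExpr, TMM, robust quasi-likelihood F test) fitted 3 groups with no covariate, and p-values were adjusted over 15196 genes at 0.05. SE is the log2 fold change divided by the square root of F. Exact permutation of single values was not used, since with 3 mice per group its smallest p is 0.1. The fits were tested on simulated counts of vehicle against naïve alone, with 200 of 14869 genes changed. There edgeR found 197 of them with 11 false calls, and DESeq2 found 194 with 19 false calls. Alternatives were RLE and library-size scaling, DESeq2 1.42.0, other count filters, 2 groups only, each run alone, a replicate block, a length and GC offset (spline, 4 degrees of freedom), and leaving out each mouse. The 10 genes and all gene lists were chosen with earlier results of these data known, so counts are descriptions. Named outside the 10 were up to 3 genes of highest count per list, all called genes where at most 5 of a list moved in 1 direction (those of the rod list are not reported here), and the 5 genes most like *Gfap*; *Krt12*, *Camp*, *S100a8* and *S100a9* were added after their values were seen.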

Additional observations from a re-analysis of the deposited data

How the results depend on the processing

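In vehicle against naïve, where 5 of the 10 genes rose, the count was 4 with library size alone, without a count filter and at a mean of at least 50 counts (*S100a6* lost in each, adjusted p 0.0504 to 0.0696; 5.88%, 3.47% and 4.64% of all tested genes rose), 9 with DESeq2, 7 with only the groups compared or run 2 alone (6.26% and 4.70%), 8 with the length and GC offset, 6 with the block added to it (5.74%) and 0 to 9 with each mouse left out; in TD139 against vehicle the 10 falls became 8 with offset and block together (*Gfap* lost, adjusted p = 0.0622, and *Anxa1*, adjusted p = 0.0911; 6.89% of all tested genes fell), 9 with only the groups compared (*Anxa1* lost; 16.3%) and 4 to 10 with each mouse left out, and in TD139 against naïve the 0 falls became 0 to 2. No fold change of the 10 genes changed sign, apart from *Nes* in TD139 against naïve, which ranged from -0.31 to 0.10 over the left-out mice, with 0.10 without TD139 mouse 2. Over the settings that kept every mouse, 106 of 110 single-gene results of TD139 against vehicle, 91 of 110 of vehicle against naïve and 110 of 110 of TD139 against naïve kept their side of the threshold. Samples with the same replicate number did not deviate together (r -0.26 to 0.28, own number best in 3 of 18 checks), so the numbers are not taken as pairs; a replicate block gave 5 rises (*S100a6* lost, adjusted p = 0.0928, and *S100a11* gained, adjusted p = 0.0477; 3.68% of all tested genes rose), 9 falls (*Anxa1* lost, adjusted p = 0.0566; 15.4% fell) and 0 calls in the 3 comparisons. Over all tested genes, the 746 rises and 439 falls of vehicle against naïve became 1355 and 1063 with DESeq2, 930 and 2017 with the length and GC offset and 893 and 258 with library size alone, and 1 to 1167 and 0 to 815 with single mice left out. In TD139 against vehicle 2617 rises and 2455 falls became 2119 and 1156 with the offset, 1942 and 3040 with library size alone and 867 to 2995 and 759 to 2931 with single mice left out; in TD139 against naïve 413 and 362 became 1429 and 1157 with DESeq2, 366 and 194 with library size alone, 0 and 0 with the offset or the block, and 0 to 1523 and 0 to 1156 with single mice left out. The cause of these shifts was not tested. The lowest read numbers of a member in 1 mouse were 19 for *S100a11* and 41 for *Anxa3*.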
